A study of Mus musculus with 96 samples.

Results

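Described here are 9 of the 49466 genes in a count table across the early steps of red cell formation: the glucocorticoid receptor gene Nr3c1, the receptor co-chaperone genes Fkbp4 and Fkbp5, the receptor's target genes Tsc22d3 and Per1, the mRNA-binding protein genes Zfp36l2 and Zfp36l1, the lipid-sensing receptor gene Ppara and the oxygen-response gene Hif1a. They were chosen by name, as the rows of the table that carry these symbols, and each symbol had 1 row. Reads were counted by Smart-seq2, which copies full-length cDNA, in single cells of fetal liver, taken at embryonic day 14.5 from C57/Bl6J mice. Red cells had been lysed and cells carrying lineage markers, Sca-1, CD16/32 or CD41 removed before the sort, so what is left are progenitors with Kit on their surface, graded by CD71 and CD24. The gates were BFUE (burst forming unit-erythroid, the earlier committed progenitor), Intermediate_25-35, Intermediate_50-60 and CFUE (colony forming unit-erythroid, the later one), the intermediates being named for a percentage of CD71/CD24 expression. They are the lower and upper intermediate gates of the text. The labels name no genotype, treatment or added hormone for any gate.

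Glucocorticoids enter cells freely and bind the receptor encoded by Nr3c1, which waits in the cytoplasm in a complex with HSP90 and co-chaperones, moves to the nucleus and raises or lowers transcription of its target genes. In red cell formation this receptor is known for letting BFU-E divide without maturing, in anaemia and in culture with dexamethasone. ZFP36L2, which binds AU-rich elements and hastens the decay of mRNAs, and PPARα, which cooperates with the receptor when activated, are known as further parts of that self-renewal, and HIF1α as a transcription factor of low oxygen that acts with it.

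Of 24 wells per gate, the 23 BFUE, 21 lower intermediate, 24 upper intermediate and 23 CFUE cells with 50000 or more reads were kept. They held 947458 to 3785903 reads each, and 31059327 to 38184231 reads summed per gate. No label gives the animals or pools behind the cells. Each gate therefore counts as 1 sample, and its differences from other gates have no replicate check and were not tested. Gate and plate column cannot be told apart either, because each gate filled 3 columns of 1 plate. Each gate did span all plate rows, and values are also given for the top rows (A to D) and the bottom rows (E to H). Values are CPM (reads per 1000000 reads of the cell or of the summed cells). Intervals of levels and ratios are exact 95% intervals that cover counting error only, because reads without molecular identifiers are not independent molecules. Intervals of shares of cells treat the cells of a gate as independent draws, and cover no difference between animals or pools. In bulk sums, fewer cells with a transcript and less of it per cell cannot be told apart, so the values of single cells are given beside them.

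BFUE held cells of 2 kinds. In 8 of its 23 cells Cd34 lay at 1036 to 2202 CPM, and in the other 15, as in all later cells, it lay at no more than 5.16 CPM, so BFUE is also given split at 100 CPM of Cd34 into Cd34-high and Cd34-low cells. Summed over 8 neutrophil and monocyte markers, the Cd34-high cells held 350.0 to 7029 CPM per cell, with Elane and Ly6c2 at 0 reads, and the Cd34-low cells 1.32 to 184 CPM. Summed over 8 erythroid markers they held 12.8 to 233 CPM against 767 to 2088 CPM, so the BFUE label is not borne out by erythroid markers in the Cd34-high cells. Summed over 9 hepatoblast markers, transcripts of the liver's own cells, the gates held 247, 91.0, 150.0 and 152 CPM from BFUE to CFUE, lower at the same step as several genes below, and their part in those results was not tested. The sum over 8 macrophage markers was at most 1.73 CPM in any group. The CFUE cell of well D10 stood apart, with 947458 reads, 6361 genes and 19 CPM of Fkbp4, and values without it, a choice made after seeing the data, are given where they change a call.

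Across the whole series of gates, 4 of the 7 genes that could be measured were lower in CFUE than in BFUE by 1.5-fold or more and 0 were higher, where measured means 10 CPM or more in either gate. The 4 were Tsc22d3, Zfp36l2, Hif1a and Nr3c1, and without the cell of well D10 Per1 made it 5. Of all 8701 genes measured in this comparison, 29.6% were lower and 13.7% higher by this rule, and the median log2 ratio was -0.70 over the 7 genes and -0.14 over all genes. The same 4 genes were lower, and again 0 higher, when CFUE was set against the Cd34-low BFUE cells alone, beside 24.9% lower and 13.6% higher among 8246 genes, with medians of -0.67 and -0.11, and Per1 was again the fifth without that cell. In no comparison were the values of the single cells of 2 groups apart for any of the 9 genes.

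**Figure D1:**
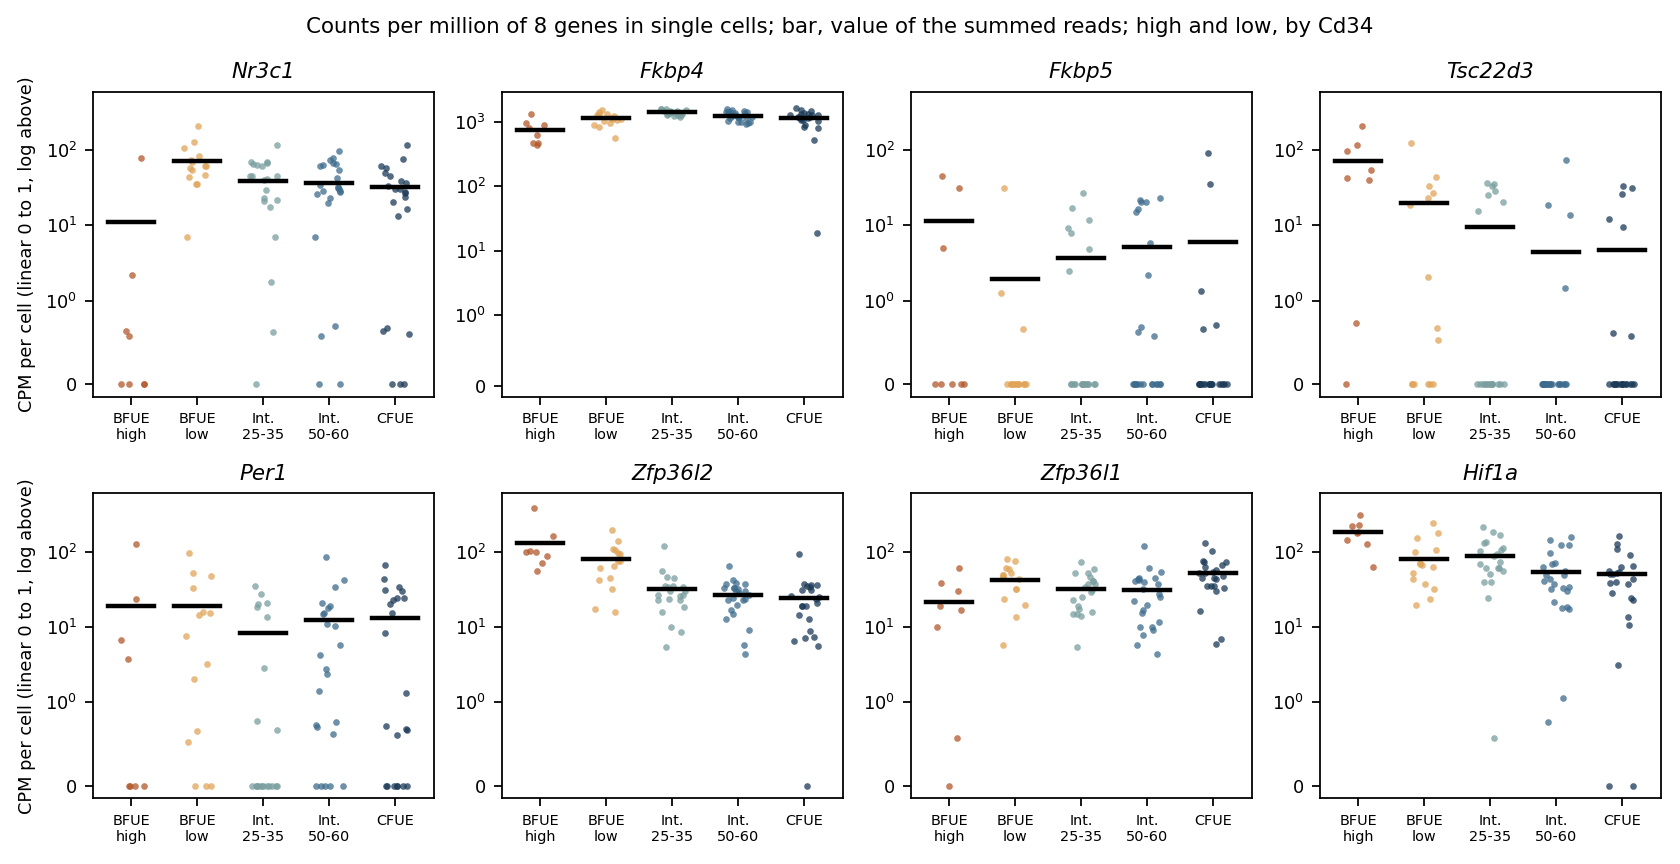
CPM of 8 genes in each of the 91 kept cells (points) and in the summed reads of each group (black bars), with BFUE divided at 100 CPM of Cd34; the vertical axis is linear from 0 to 1 CPM and logarithmic above. Zfp36l2 steps down after BFUE with reads in nearly every cell, Nr3c1 is near 0 in 7 of 8 Cd34-high cells, and Fkbp5, Tsc22d3 and Per1 lie at 0 in many cells of each gate.

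Nr3c1 (ENSMUSG00000024431, chromosome 18, 39410545 to 39519421, minus strand, GRCm38), the receptor itself, was highest in Cd34-low BFUE cells and lower in every later gate. Its summed level was 52.9 CPM in BFUE, 39.2 in the lower intermediate gate, 36.7 in the upper one and 32.5 in CFUE. The counting intervals of the intermediate gates overlapped, and those of the other neighbours in this order did not. Split by Cd34, BFUE stood at 72.0 CPM in the Cd34-low cells and at 11.1 CPM in the Cd34-high cells.

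Per cell, Nr3c1 ranged from 7.10 through a median of 61.1 to 212 CPM in the 15 Cd34-low cells, each of which held 10 or more reads. In the lower intermediate gate it ranged from 0 through 40.9 to 119 CPM, in the upper one from 0 through 31.2 to 97.3 CPM, and in CFUE from 0 through 28.1 to 116 CPM. The gates therefore overlapped widely, but only 3 of 23 CFUE cells reached the median of the Cd34-low cells, against 7 of 21 and 7 of 24 cells of the intermediate gates. The receptor was still read in 20 of 23 CFUE cells (87.0%, exact interval 66.4 to 97.2%). That interval treats the cells as independent draws from the gate, so it does not cover differences between animals or pools.

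Nr3c1 was 1.62-fold lower in CFUE than in all BFUE cells (interval 1.51 to 1.75) and 2.21-fold lower than in the Cd34-low cells (interval 2.05 to 2.38). In the bottom rows alone the first difference was 1.45-fold and not called. Most of the second difference was in place at the lower intermediate gate, which was 1.84-fold lower than the Cd34-low cells (interval 1.71 to 1.98), with ratios of 0.551 in the top rows and 0.540 in the bottom rows. Against all BFUE cells that step was only 1.35-fold and was not called, since the Cd34-high cells hold little of the transcript.

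The 8 Cd34-high cells held 0, 0, 0, 0, 0.576, 0.640, 2.17 and 79.1 CPM of Nr3c1. The last value is the cell of well F1, which carried 96.2% of the reads of these 8 cells and also 6209 CPM of the myeloid enzyme gene Mpo, and without it the other 7 stood at 0.483 CPM. With it, the Cd34-high cells were 6.48-fold lower than the Cd34-low cells (interval 5.43 to 7.78). Gata1, the central erythroid transcription factor, lay at 2.17 to 66.9 CPM in the Cd34-high cells and at 189 to 583 CPM in the Cd34-low cells, so the part of BFUE with more Nr3c1 was also the part with more Gata1. Among the 15 Cd34-low cells alone, r of the pair was 0.155 on the scale of log2 of CPM plus 10. With 15 cells, an r of this size cannot decide whether the pair was related.

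**Figure D2:**
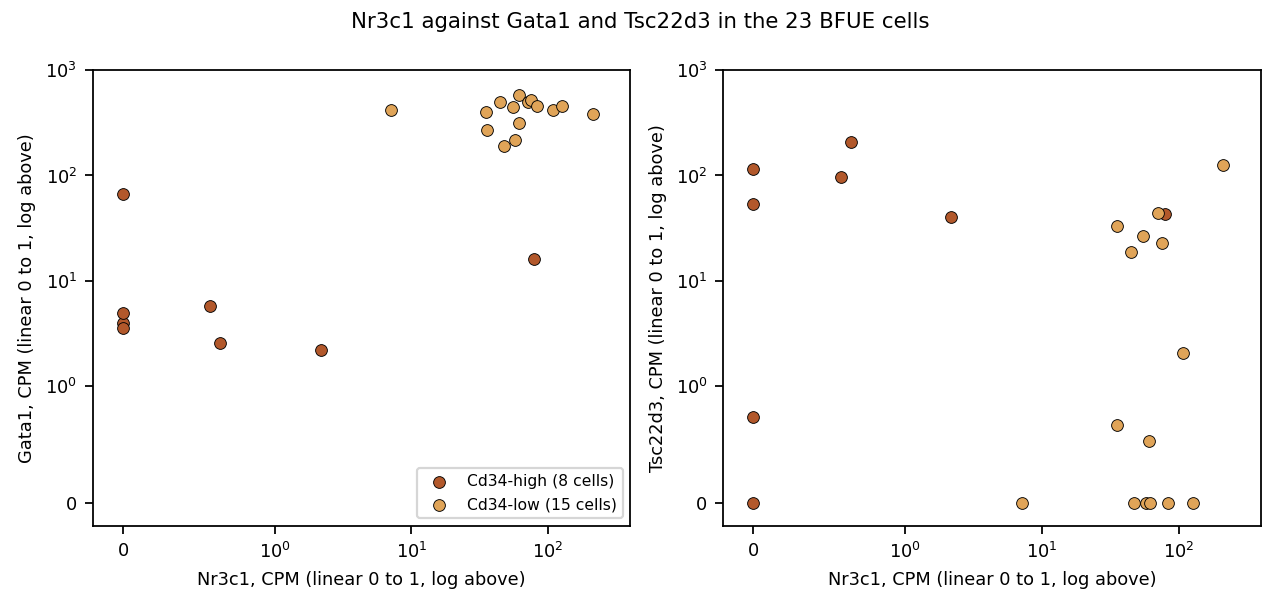
CPM of Nr3c1 (horizontal) against Gata1 (left) and Tsc22d3 (right) in the 23 BFUE cells, 1 point per cell, on axes that are linear from 0 to 1 CPM and logarithmic above. The 15 Cd34-low cells hold 189 to 583 CPM of Gata1 and 7.10 to 212 CPM of Nr3c1, while 5 of the 8 Cd34-high cells hold Tsc22d3 with little or no Nr3c1.

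Other genes that set how much active steroid a cell sees were under 2 CPM in Cd34-low BFUE cells and all later gates. Of the 6 genes of receptor and steroid handling, Nr3c1 was the 1 measured in CFUE against Cd34-low BFUE, and Hsd11b1, the enzyme that regenerates active glucocorticoid, had 0 reads in all 4 gates. Abcb1b, a pump that exports steroids among other substrates, was at 11.4 CPM in the Cd34-high cells and 1.49 CPM in the Cd34-low cells, a ratio of 7.63 (interval 5.31 to 11.2).

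Fkbp4 (ENSMUSG00000030357, chromosome 6, 128429735 to 128438677, minus strand) encodes FKBP52, a co-chaperone that aids hormone binding and transport of the receptor. It was read in all 91 cells and was the most abundant of the 9 per exon length, at 374 CPM per kb in BFUE and 418 in CFUE, against 6.88 and 4.24 for Nr3c1. Summed over cells, it stood at 1044 CPM in BFUE, 1432 in the lower intermediate gate, 1272 in the upper one and 1167 in CFUE, and every neighbouring pair of intervals in this order was apart, at differences too small to be called.

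The spread of Fkbp4 between cells was narrower in the intermediate gates than at the ends. Its mean per cell was 1006 ± 327 CPM (SD over 23 cells) in BFUE and 1138 ± 352 CPM (SD over 23 cells) in CFUE, against 1421 ± 125 CPM (SD over 21 cells) in the lower intermediate gate and 1270 ± 199 CPM (SD over 24 cells) in the upper one. The BFUE spread includes the difference between its parts, at 1139 ± 257 CPM (SD over 15 cells) in Cd34-low and 758 ± 310 CPM (SD over 8 cells) in Cd34-high cells. In CFUE it ran from 19 through 1196 to 1674 CPM, the lowest value being the cell of well D10. That cell widens the CFUE SD, since the next lowest, of well A10, held 533 CPM, and no SD without it was computed. The Cd34-high cells were 1.54-fold lower than the Cd34-low cells (760.4 against 1174 CPM, interval 1.51 to 1.58), with cells from 439 to 1327 CPM and from 561 to 1576 CPM. The call was lost with size factors (DESeq2), at 1.48-fold, and in the top rows, at 1.43-fold.

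The other chaperones of the receptor lay within 1.5-fold between these ends. Of 13 measured genes of receptor chaperones and co-chaperones, none was called either way (0 lower, 0 higher) between CFUE and Cd34-low BFUE cells, and the median log2 ratio was -0.06. The largest ratios were those of Dnajb1 (1.31) and Hsp90aa1, the inducible HSP90 (1.30), above 1, and of Hspa4 (0.777) and Bag1 (0.778) below it. Coregulators of the receptor were more mixed, with 4 of 12 lower and 1 higher at -0.20. Over all genes measured in this comparison, 24.9% were lower and 13.6% higher, with a median of -0.11, so this count lay near that of all genes. Ncoa3, a coactivator, was at 24.8 CPM in Cd34-low BFUE cells and 2.17 in CFUE, a ratio of 0.0877 (interval 0.0683 to 0.111), Ncoa2 had a ratio of 0.510 and Med14, of the Mediator complex, 0.556. Nrip1, a corepressor, was the 1 higher gene, at a ratio of 1.61.

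Of the receptor's target genes, Tsc22d3, Per1 and Fkbp5 are classic examples, and the stretches before their RefSeq starts are shown. Any part of these stretches in the levels of the 3 genes was not tested. RefSeq promoter windows of GRCm38.p6, 250 bases before to 50 after a start, were given for 7 of the 9 genes, in 10 windows. The full palindromic glucocorticoid response element, searched as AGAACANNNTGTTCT on both strands, was in 0 of the 10 and in 0.00913% of 32851 windows. Its half-site AGAACA, or TGTTCT on the other strand, was in 1 of the 10, a Tsc22d3 window, and in 19% of all windows. The E-box CACGTG, the motif of the clock factors, was in the windows of Per1, Fkbp5 and Hif1a, and in 7.15% of all windows. A match is only a match of letters, and no match says nothing of sites outside these windows. Below are the bases before each start outside annotated exons, 5′ to 3′ on the gene's strand, at chrX:140600660-140600772 (minus strand), chr11:69098699-69098947 (plus strand) and chr17:28486150-28486399 (minus strand), with the half-site of Tsc22d3 and the E-boxes of Per1 and Fkbp5 in capitals.
Tsc22d3: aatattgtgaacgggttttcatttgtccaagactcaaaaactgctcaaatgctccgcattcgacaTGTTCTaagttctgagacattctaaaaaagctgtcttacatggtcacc
Per1: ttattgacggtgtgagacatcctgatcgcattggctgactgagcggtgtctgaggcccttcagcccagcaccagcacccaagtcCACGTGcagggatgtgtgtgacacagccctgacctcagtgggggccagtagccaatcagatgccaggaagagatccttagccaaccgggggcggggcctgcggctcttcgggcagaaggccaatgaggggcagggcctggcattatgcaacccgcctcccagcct
Fkbp5: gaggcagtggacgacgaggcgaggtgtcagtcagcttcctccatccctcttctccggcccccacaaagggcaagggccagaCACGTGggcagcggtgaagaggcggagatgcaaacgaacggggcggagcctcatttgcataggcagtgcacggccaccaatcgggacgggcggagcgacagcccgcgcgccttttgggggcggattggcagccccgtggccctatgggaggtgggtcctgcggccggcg

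Tsc22d3 (ENSMUSG00000031431, chromosome X, 140539528 to 140600659, minus strand) encodes GILZ, a leucine zipper protein induced by glucocorticoids. It had the largest difference of the 9 between the ends, at 36.1 CPM in BFUE, 9.43 and 4.42 in the lower and upper intermediate gates and 4.77 in CFUE. That is 7.58-fold lower in CFUE than in BFUE (interval 6.46 to 8.95). Of the BFUE cells, 16 of 23 held a read of it, against 7 of 21, 4 of 24 and 7 of 23 cells of the later gates.

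Summed over the parts of BFUE, Tsc22d3 and the receptor had opposite orders. Its summed level was 71.9 CPM in the Cd34-high cells, with a range from 0 through 48.2 to 210 CPM, and 19.8 CPM in the Cd34-low cells, from 0 through 0.669 to 125 CPM. The ranges overlapped, and the 3.63-fold higher level of the Cd34-high cells (interval 3.25 to 4.06) rests on the bottom rows, where the ratio was 12.6, while it was 0.774 in the top rows. Among Cd34-high cells, 5 of 8 held 10 or more reads of Tsc22d3 without 10 reads of Nr3c1. In the Cd34-low cells this could not occur, since all 15 held 10 or more reads of Nr3c1. Of those 15, 6 also held 10 or more reads of Tsc22d3.

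Against the Cd34-low cells, CFUE was 4.15-fold lower in Tsc22d3 (interval 3.49 to 4.97). The lower intermediate gate was 2.10-fold lower than those cells in all rows, but the ratio was 0.213 in the top rows and 1.36 in the bottom rows, so the direction of that step was not shared by the top and bottom rows. In the upper intermediate gate the cell of well G7 held 70.8% of the reads, and without it the gate stood at 1.35 CPM.

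Per1 (ENSMUSG00000020893, chromosome 11, 69095217 to 69109960, plus strand) encodes a repressor of the circadian clock and responds quickly to glucocorticoids. Over the summed cells it stood at 18.9 CPM in BFUE, 8.24 in the lower intermediate gate, 12.4 in the upper one and 13.3 in CFUE. The single cells ran from 0 to 127 CPM in BFUE, to 35.4 and 85.4 CPM in the intermediate gates and to 67.5 CPM in CFUE. The lower intermediate gate was thus lowest, 2.30-fold below BFUE (interval 1.99 to 2.66), and CFUE was not called lower, at 1.43-fold. The cell of well D10 held the most Per1 reads of CFUE, and without it CFUE stood at 11.8 CPM, 1.61-fold below BFUE and 1.60-fold below the Cd34-low cells, which passes the rule. Against BFUE the bottom rows passed it too, at 1.58-fold, but the top rows did not, at a ratio of 0.761. Against the Cd34-low cells the top rows passed it, at 1.69-fold. In the bottom rows CFUE was not below those cells, at a ratio of 1.11, with both groups under 10 CPM.

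The first step of Per1 also depended on the plate rows, at a ratio of 0.146 to the Cd34-low cells in the top rows and 1.35 in the bottom rows, and against all BFUE cells it was 1.29-fold and not called in the bottom rows. The Cd34-high and Cd34-low cells were level in Per1, at 19.1 and 18.8 CPM, but the cell of well H2 carried 79.0% of the reads of the Cd34-high cells, which stood at 4.55 CPM without it. The top rows had Per1 3.82-fold lower in the Cd34-high cells and the bottom rows 3.27-fold higher.

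Fkbp5 (ENSMUSG00000024222, chromosome 17, 28399094 to 28517527, minus strand) encodes FKBP51, the co-chaperone that the receptor induces and that dampens hormone binding in turn. It was scarce, at 4.95, 3.73, 5.16 and 6.04 CPM from BFUE to CFUE, under the 10 CPM needed to be counted between gates, and every neighbouring pair of intervals in its order overlapped. Reads were found in 6 of 23, 7 of 21, 11 of 24 and 5 of 23 cells, and the cell of well E11 held 73.8% of the CFUE reads. In the Cd34-high cells it reached 11.5 CPM, against 1.95 in the Cd34-low cells, from 3 of 8 and 3 of 15 cells, with the cell of well E3 holding 58.0% of the first and that of well F2 94.1% of the second.

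The wider list of classical receptor targets was divided. Of 8 measured in CFUE against Cd34-low BFUE cells, 4 were lower (Tsc22d3, Nfkbia, Txnip and Birc3) and 2 higher (Dusp1 and Mt2), with a median log2 ratio of -0.75. Over all genes, 24.9% were lower and 13.6% higher, with a median of -0.11. Txnip, an inhibitor of thioredoxin, went from 200.4 CPM to 56.7, a ratio of 0.283 (interval 0.269 to 0.298), and Nfkbia, the NF-κB inhibitor, had a ratio of 0.309. Mt2, a metallothionein, was higher at 74.9 against 155 CPM, a ratio of 2.07 (interval 1.97 to 2.18). At the lower intermediate gate 6 of 8 were already lower and 0 higher, at -1.09, where 17.7% of all genes were lower. In the Cd34-high cells 8 of 12 were higher than in the Cd34-low cells and 2 lower, at 1.28, where 30.4% of all genes were higher and 25.4% lower, and the 2 lower ones were Mt1 (28.2 against 754 CPM) and Mt2. The neutrophil and monocyte markers given above were higher in the same cells, as were the sums over 8 lymphoid markers (969 against 1.45 CPM, with Dntt and Cd3e at 0 reads) and 8 stem and multipotent markers (2858 against 317 CPM, with Mecom at 0 reads in the Cd34-low cells). From the Cd34-low cells to the lower intermediate gate, the stem markers went from 317 to 30.1 CPM and 7 megakaryocyte markers from 261 to 13.1 CPM, with Pf4 and Ppbp at 0 reads in both. Most of the stem sum in the Cd34-low cells was Gata2, which reached 1353 CPM in the cell of well D1. Of 7 stem markers measured between the parts of BFUE, 6 were higher and 1 lower in the Cd34-high cells. The part of these cell types in the levels of the 9 genes and of the targets was not tested.

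Zfp36l2 (ENSMUSG00000045817, chromosome 17, 84183931 to 84187947, minus strand) was lower after the first step in nearly all cells. Its summed level was 96.0 CPM in BFUE, 31.8 in the lower intermediate gate, 26.8 in the upper one and 24.2 in CFUE. It was read in all 23, 21 and 24 cells of the first 3 gates and in 22 of 23 CFUE cells. The median cell held 87.0 CPM in BFUE, with a range of 15.7 to 386, against 26.9, 27.2 and 20.9 CPM later, and the highest later cells reached 119, 63.8 and 93.0 CPM. The ranges overlapped, yet only 2 of the 68 later cells reached the BFUE median, 1 of the lower intermediate gate and 1 of CFUE.

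At the first step Zfp36l2 was 3.02-fold lower (interval 2.81 to 3.24), and the later steps of 1.19-fold and 1.11-fold were not called. CFUE was 3.96-fold lower than BFUE (interval 3.68 to 4.27) and 3.31-fold lower than the Cd34-low cells (interval 3.06 to 3.59). Unlike Nr3c1, Zfp36l2 was higher in the Cd34-high cells, at 131 against 80.2 CPM, 1.63-fold (interval 1.52 to 1.74). The cell of well H2 held 35.2% of the reads of the Cd34-high cells, which stood at 96.0 CPM without it, so that this difference falls under 1.5-fold, as it does in the top rows, at 1.21-fold. All 23 BFUE cells held 10 or more reads of Zfp36l2. The cells with 10 or more reads of both Nr3c1 and Zfp36l2, all 15 Cd34-low and 1 of 8 Cd34-high, therefore restate Nr3c1 alone.

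Its paralog Zfp36l1 (ENSMUSG00000021127, chromosome 12, 80107754 to 80113013, minus strand), which binds the same kind of AU-rich element, went the other way at the end of the series. Summed over cells, it stood at 36.0, 32.2, 31.2 and 52.2 CPM from BFUE to CFUE. The intervals of BFUE, the lower and the upper intermediate gate overlapped in turn, and CFUE lay above them, 1.67-fold over the upper intermediate gate (interval 1.55 to 1.80), with ratios of 1.44 in the top rows and 1.91 in the bottom rows. The single cells ran from 4.36 through 26.3 to 118 CPM in the upper intermediate gate and from 6.02 through 47.4 to 133 CPM in CFUE, so the gates overlapped. Against BFUE, CFUE was not called, but it was with TMM factors, at 1.56-fold, with size factors, at 1.55-fold, on thinning to 500000 reads, at 1.57-fold, and in the bottom rows, at 2.03-fold. In the top rows CFUE was nearly level with BFUE, at a ratio of 1.07. Against the Cd34-low cells the ratio was 1.23 and not called, with 0.867 in the top rows and 1.86 in the bottom rows.

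Per exon length the order of the pair changed along the gates. Zfp36l2 and Zfp36l1 stood at 27.2 and 12.03 CPM per kb in BFUE, at 9.01 and 10.8 in the lower intermediate gate, at 7.59 and 10.4 in the upper one and at 6.86 and 17.5 in CFUE. Zfp36l2 was the higher of the pair in 17 of 23 BFUE cells, 8 of 21 and 11 of 24 intermediate cells and 3 of 23 CFUE cells. Split by Cd34, it was the higher in 8 of 8 Cd34-high and 9 of 15 Cd34-low BFUE cells. An antisense gene overlaps the Zfp36l2 locus in GENCODE M21, and the strand setting of the counting is not given in the sources used here.

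**Figure D3:**
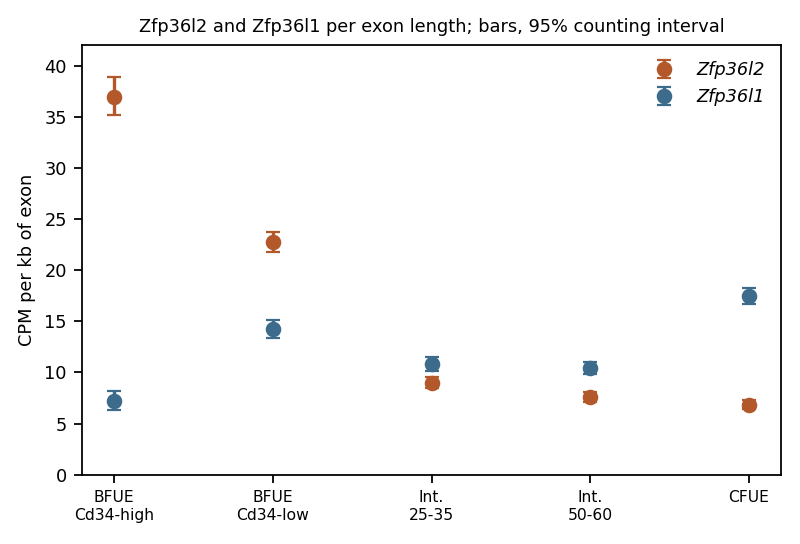
Summed level of Zfp36l2 and Zfp36l1 in CPM per kb of exon (vertical, from 0) in the Cd34-high and Cd34-low BFUE cells and the later gates, with error bars of the 95% counting interval. Zfp36l2 is above Zfp36l1 in both parts of BFUE and below it from the lower intermediate gate on, most widely in CFUE at 6.86 against 17.5.

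The wider family and its decay partners held calls in both directions. Of 20 measured genes, 7 were lower and 1 higher in CFUE than in Cd34-low BFUE cells, with a median log2 ratio of -0.25, beside 24.9% lower and 13.6% higher over all genes. The lower ones included Xrn1, the 5′ to 3′ exonuclease, at a ratio of 0.374 (interval 0.325 to 0.430), and Cnot1, the scaffold of the CCR4-NOT deadenylase, at 136 against 63.1 CPM and a ratio of 0.463. Cnot6, a catalytic subunit of that complex, was the 1 higher gene, at a ratio of 2.43 (interval 2.15 to 2.76).

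Ppara (ENSMUSG00000022383, chromosome 15, 85734983 to 85802819, plus strand) had 0 reads in all 91 cells. In the sums this allows up to 0.0786 CPM in BFUE and 0.0846 CPM in CFUE, taking 3 reads as the limit. It also allows a share of cells with a read of up to 14.8% in each (exact upper bound for 0 of 23 cells). That bound treats the cells as independent draws from the gate, so it does not cover differences between animals or pools. No change across the gates can be seen at this depth. Among 9 PPAR receptors and partners 2 were measured: Rxrb, a dimer partner, with a CFUE to Cd34-low BFUE ratio of 0.517, and Lpin1, a coactivator, with 1.58. Of 15 measured genes known as PPARα targets in liver, 1 was lower and 2 higher, with a median log2 ratio of -0.06. Over all genes, 24.9% were lower and 13.6% higher, with a median of -0.11. Angptl4 had a ratio of 0.463 and Ehhadh, of peroxisomal fat oxidation, 1.95, while the lipid droplet gene Plin2 was at 1.65 and Ucp2, at 1.48, was not called.

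Hif1a (ENSMUSG00000021109, chromosome 12, 73901375 to 73947530, plus strand) was lower from the upper intermediate gate on. Its summed level was 112 CPM in BFUE, 86.7 in the lower intermediate gate, 54.7 in the upper one and 50.6 in CFUE, and only the intervals of the last pair overlapped. Per cell it ran from 19.4 through 100.3 to 307 CPM in BFUE, from 0.572 through 74.1 to 212 CPM in the lower intermediate gate, from 0.768 through 41.8 to 158 CPM in the upper one and from 0 through 43.4 to 164 CPM in CFUE. The gates overlapped, and 3 of 23 CFUE cells reached the BFUE median.

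Hif1a was 2.22-fold lower in CFUE than in BFUE (interval 2.10 to 2.35) and 1.6-fold lower than in the Cd34-low cells (interval 1.5 to 1.7). The second call was lost with TMM factors and with size factors, both at 1.48-fold, and in the bottom rows, at 1.46-fold. It was level between the Cd34-low cells and the lower intermediate gate (80.8 and 86.7 CPM) and then 1.59-fold lower in the upper intermediate gate (interval 1.5 to 1.68), with ratios of 0.705 in the top rows and 0.554 in the bottom rows. The Cd34-high cells were 2.25-fold above the Cd34-low cells (181 against 80.8 CPM, interval 2.12 to 2.39), with cells from 62.7 to 307 CPM against 19.4 to 245 CPM.

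The rest of the oxygen pathway was mixed in direction. Of 10 measured HIF subunits and oxygen sensors, 2 were lower (Hif1a and Vhl) and 2 higher (Hif1an and Eloc), with a median log2 ratio of 0.20 for CFUE against Cd34-low BFUE cells. Hif1an, the asparagine hydroxylase that restrains HIF, had a ratio of 2.60 (interval 2.37 to 2.85), Eloc, of the VHL ubiquitin ligase, 2.28 and Vhl 0.625. Of 16 measured HIF1 targets, 6 were lower and 4 higher at -0.42, beside the 24.9% lower, 13.6% higher and median of -0.11 over all genes. P4ha1, a collagen prolyl hydroxylase, was higher at a ratio of 3.19 and Pdk1, which holds pyruvate back from mitochondria, at 1.94, and Mxi1 was lower at 0.386. Car9, a carbonic anhydrase, stood at 14 CPM in Cd34-low BFUE cells and at 0 reads in CFUE.

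The clock genes were lower in part, and Per1, 1.42-fold lower in CFUE than in Cd34-low BFUE cells, was not called. Of 11 measured, 8 were lower and 0 higher in that comparison, with a median log2 ratio of -1.09. Over all genes, 24.9% were lower and 13.6% higher. At the lower intermediate gate 8 were lower already, at -0.74, where 17.7% of all genes were lower and 9.54% higher. Per3 had a ratio of 0.270, Cry1 0.336 and Nr1d2, a repressor of the clock, 0.0678 (interval 0.0459 to 0.0969). Csnk1e, a kinase of the period proteins, went from 10.2 to 0.0846 CPM. In CFUE against Cd34-low BFUE cells, 5 of 10 other measured genes tied to BFU-E self-renewal were lower, Kit among them, and 1 higher, at -0.85. The shares over all genes were the same 24.9% and 13.6%. Myb had a ratio of 0.190 (interval 0.176 to 0.206) and Smad3 0.201, Gata2 was at 235 against 0.395 CPM, and Bmi1 was higher, at 4.81 against 19.8 CPM. Kit, also lower, was stained for the sort and is no finding.

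**Figure D4:**
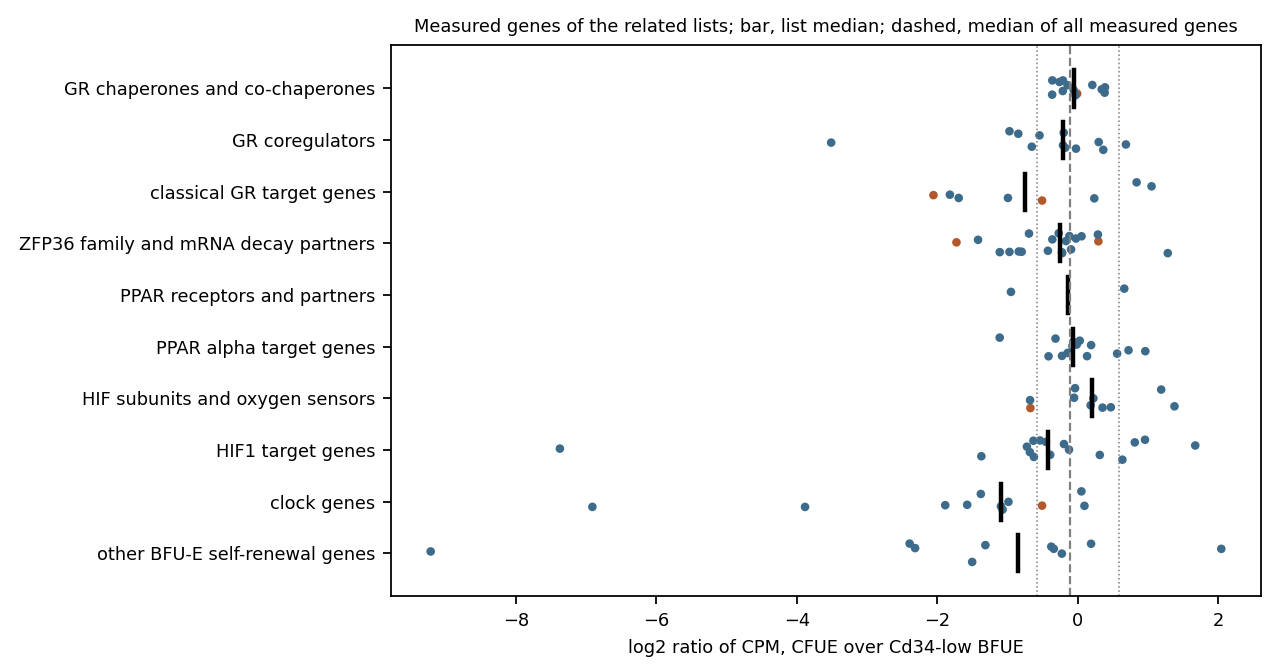
Log2 ratio of CFUE over Cd34-low BFUE cells (horizontal) for each measured gene (points; orange for the 9 genes described) of 10 related lists, with the median of each list as a black bar, the median of all 8246 genes (-0.11) as a dashed line and 1.5-fold as dotted lines. Chaperones lie between the dotted lines, and clock genes have the lowest median of the 10 lists drawn, at -1.09; receptor and steroid handling, with 1 measured gene, is not drawn.

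The step of fall of each gene was set as the step of neighbouring gates with the lowest ratio, among those with 10 CPM or more in either gate, if that was 1.5-fold or more and lower in the top and in the bottom rows. From all BFUE cells, Tsc22d3, Per1 and Zfp36l2 fell at the first step and Hif1a at the second. From the Cd34-low cells, Nr3c1 and Zfp36l2 fell at the first step and Hif1a at the second, while Tsc22d3 and Per1 had no step, because the top and bottom rows pointed in opposite directions at the first. The second step of Tsc22d3 was as deep, at a log2 ratio of -1.09 with 0.393 in the top rows and 0.503 in the bottom rows, but both its gates lay under 10 CPM. Fkbp4, Fkbp5 and Zfp36l1 had no step of fall from either start. By counts, the lower intermediate gate had 3 of 7 genes lower than BFUE (24.3% of all measured genes lower, 10.1% higher) and 4 of 7 lower than the Cd34-low cells (17.7% lower, 9.54% higher), with 0 higher in both.

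The later steps held fewer calls. The upper intermediate gate had 1 of 6 genes lower than the lower one, Hif1a, and 1 higher, Per1, where 9.27% of all measured genes were lower and 7.34% higher. CFUE had 0 of 6 lower than the upper intermediate gate and 1 higher, Zfp36l1, where 9.7% were lower and 7.98% higher. No test was made in either step, and the step of Per1 at 1.51-fold was 1.77-fold without the cell with most reads of it in each gate, but was then not counted, since both gates lay under 10 CPM. In the bottom rows it was 1.06-fold. Between the parts of BFUE, the Cd34-high cells had 3 of 8 genes lower than the Cd34-low cells (Nr3c1, Fkbp4 and Zfp36l1) and 4 higher (Fkbp5, Tsc22d3, Zfp36l2 and Hif1a), where 25.4% of all measured genes were lower and 30.4% higher.

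**Figure D5:**
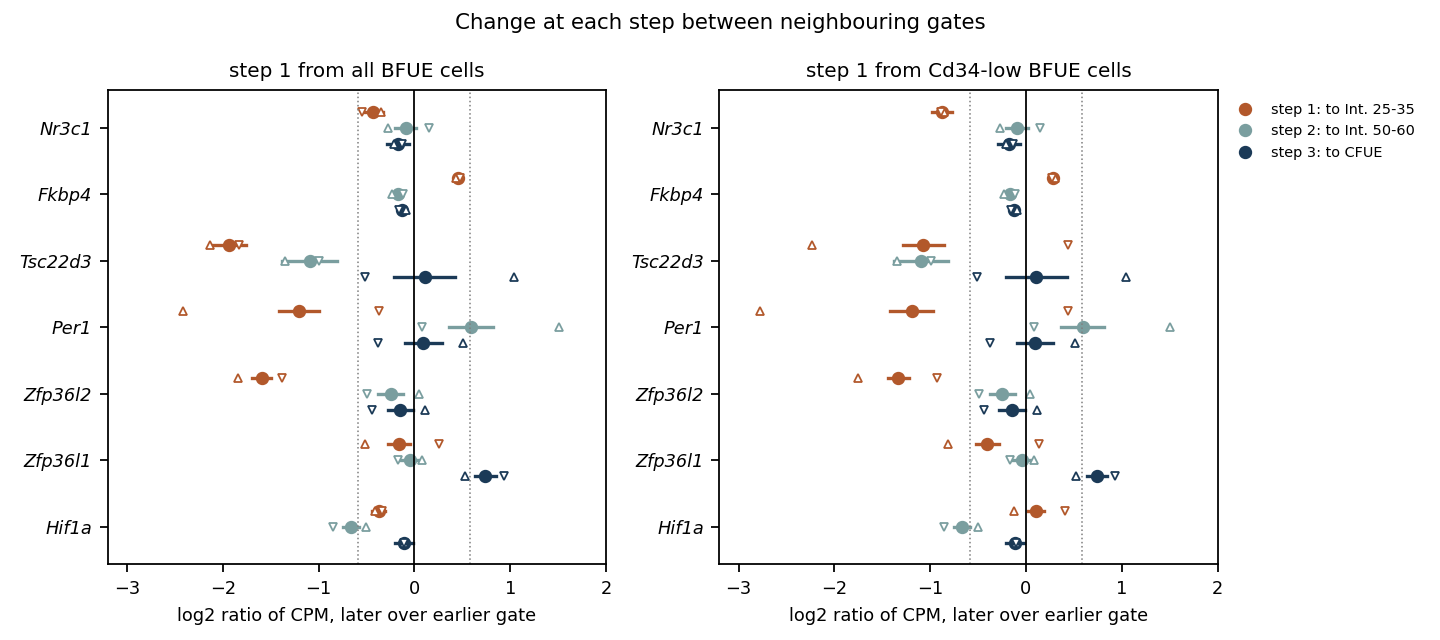
Log2 ratio of CPM of the later over the earlier gate (horizontal) at each of 3 steps for 7 genes, with the first step taken from all BFUE cells (left) or from the Cd34-low cells (right). Filled points are the summed reads with their 95% counting interval, open triangles pointing up are the top rows and pointing down the bottom rows, and dotted lines mark 1.5-fold; the triangles of Tsc22d3 and Per1 lie on opposite sides of 0 at the first step on the right, and those of Nr3c1 lie together.

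The genes most like each member across cells were taken as the 3 with the highest Pearson r of log2 of CPM plus 10 over the 91 cells, among genes of 50 CPM or more in any gate (4777 for most members). These cells share 1 plate and differ in depth and gate, so r is a description. For Fkbp4 they were Ncl (0.903), Pa2g4 (0.868) and Stip1 (0.860), genes of the nucleolus, of growth and of the HSP90 complex. Part of that likeness was the cell of well D10, which held 19 CPM of both Fkbp4 and Ncl, and without it the values were 0.741, 0.579 and 0.613. The rank correlation (Spearman rho) over all 91 cells was 0.554, 0.441 and 0.369.

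For Zfp36l2 they were Acap1 (0.712), Dok2 (0.689) and Laptm5 (0.678), all of them higher in the Cd34-high cells, with Laptm5 at 1415, 240.0, 47.6, 11.8 and 2.23 CPM from Cd34-high BFUE to CFUE. With the group means subtracted these r were 0.311, 0.313 and 0.210. For Tsc22d3 they were Tmem176b (0.597), Gimap6 (0.558) and Arhgap30 (0.536), likewise highest in Cd34-high cells, and for Hif1a Gcat (0.548), Arhgdib (0.515) and Cd164 (0.504). Subtracting the group means left 0.353, 0.247 and 0.249 for Tsc22d3 and 0.372, 0.249 and 0.426 for Hif1a.

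For Nr3c1 the nearest genes were Mfsd2b (0.493), Blmh (0.493) and Pdlim1 (0.482), and Mfsd2b, a sphingosine phosphate exporter of red cells, was at 16.4 CPM in Cd34-high and 588 CPM in Cd34-low BFUE cells. Subtracting the group means left r of 0.263, 0.384 and 0.230 for these genes. For Zfp36l1 they were Spty2d1 (0.405), Hba-a1 (0.395) and Akip1 (0.388), and for Per1 Rpl36 (0.340), Tspyl1 (0.336) and Dgkz (0.335), which are weak in counts this sparse. Between the receptor and its targets, r over the 91 cells was -0.01 for Tsc22d3, -0.07 for Per1 and -0.0001 for Fkbp5. These values pool the Cd34-high cells with all others. In the 15 Cd34-low cells alone r was 0.359, -0.137 and -0.663, with Fkbp5 read in only 3 of them. With the group means subtracted r was 0.158, -0.102 and 0.0874.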

How the data were processed

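Read counts were deposited for 96 wells of 1 plate, each holding 1 sorted cell. Per the submitters' processing notes, the authors used STAR 2.4, GRCm38 and featureCounts, and the table they deposited holds raw whole-number counts. Annotation release, strand setting and the handling of shared reads were not given in the sources used here, so reads of genes antisense to Zfp36l2, Zfp36l1, Hif1a and Fkbp5 cannot be told apart from theirs. The header line holds an empty cell more than the data lines, so names were given to columns in order.

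Wells with 50000 or more reads were kept, which left out 5 of 10596 to 16644 reads. Counts were summed per gate and divided by the summed reads (CPM), with exact Poisson intervals for levels, exact conditional binomial (Clopper-Pearson) intervals for ratios and exact binomial ones for shares, all at 95%. A sum of 0 stood at 3 reads, and no ratio was given with both sums at or below that. No test was made, since cells are not replicates. Members and lists were chosen with earlier results of these data known. Named list genes are up to 4 of each list with the largest difference between CFUE and Cd34-low BFUE, among those at 10 CPM, beside Gata1, Mpo, Cd34, the members of target, decay, clock, oxygen and self-renewal lists that were called, Laptm5, Hsd11b1 and Abcb1b, which were named after their values were seen. Coordinates and exon lengths are from GENCODE M21, promoter windows from RefSeq. Ratios and intervals were first tested on simulated Poisson counts, which follow the model that the intervals assume. Their coverage for real counts, with the spread between cells, was not tested. The pass mark was changed once, from the coverage among 200 changed genes to that among all genes, after the first failed on few genes. Alternatives used R 4.3.3 with edgeR 4.0.16 for TMM factors and DESeq2 1.42.0 for size factors. The rest ran in Python 3.11.15 with scipy 1.17.1, numpy 2.4.6, pandas 2.3.3 and matplotlib 3.10.9.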

Additional observations from a re-analysis of the deposited data

Results flagged for a closer look

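The 5 wells left out for few reads still held reads of the described genes, which no comparison uses. Summed over these wells, Fkbp4 had 83 reads, found in all 5, Hif1a had 5 reads and Nr3c1 had 4, each above the 3 reads that a count of 0 allows.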

How the results depend on the processing

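Of 200 counts of called members recomputed under an alternative, 174 stayed within 1.5 times the main count, and without the CFUE cell of well D10, Per1 raised the members lower in CFUE from 4 to 5 against BFUE and against Cd34-low BFUE. Of 631 log2 ratios of members, 33 had the opposite sign to the main one, 30 of them in comparisons where the member was not called. Beside the 3 others, 169 ratios lay outside the 95% counting interval of the main value. With CFUE against BFUE, 1 member was higher under TMM factors (edgeR), size factors (DESeq2), thinning to 500000 reads or plate rows E to H, against 0. Against Cd34-low BFUE, rows E to H gave 2 lower and 2 higher in CFUE and no minimum level 1 higher. For the lower intermediate gate, a minimum of 50 CPM left 1 lower against BFUE and 2 against the Cd34-low cells, where rows E to H also gave 2 and no minimum 1 higher. For the upper against the lower intermediate gate, 2 were lower with globin, mitochondrial and ribosomal RNA genes out of totals, in rows E to H or with no minimum, and 0 in rows A to D or at 2-fold, while 0 were higher in rows E to H, without the cell with most reads, at 50 CPM or at 2-fold. For CFUE against the upper intermediate gate, 0 were higher in rows A to D or at 2-fold and 2 in rows E to H. Between the parts of BFUE, 1 was lower at 2-fold, and 1 was higher in rows A to D and 2 without the cell with most reads. The called log2 ratios that turned were those of Tsc22d3 (0.44) and Per1 (0.44) for the lower intermediate gate against Cd34-low BFUE in rows E to H, and that of Tsc22d3 for Cd34-high against Cd34-low cells in rows A to D (-0.37). The cause was not tested. Zfp36l2 was lower in CFUE than in BFUE under every alternative run, at log2 ratios of -2.32 to -1.69, and Nr3c1 than in Cd34-low BFUE at -1.34 to -0.87. Shares of cells with a read changed by less than their interval on thinning in all 36 cases. No paired analysis was possible because the well numbers name single cells and no result comes from a test.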
